A study of Mus musculus with 2 samples.

Results

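The 10 genes described here encode the carnitine shuttle and the enzymes that shorten fatty acids inside mitochondria, and they were chosen by gene symbol from the 24421 genes counted in liver RNA-seq of 2 mouse libraries. The shuttle was represented by 4 of them (Slc22a5, Cpt1a, Slc25a20 and Cpt2) and chain shortening by 6 (Acadvl, Acadl, Acadm, Acads, Hadha and Hadhb). Both libraries came from liver of male C57BL/6 mice that started a high-fat diet (HFD) at 6 weeks of age and stayed on it for 12 weeks. The control library was RORα f/f, with floxed Rora alleles and no Cre named in its genotype. The other was RORα f/f:Alb-Cre, the knockout meant to be restricted to liver (LKO). Cre driven by the albumin promoter acts on the floxed alleles in hepatocytes, and which other liver cells keep them was not examined. Both groups thus shared the floxed alleles and the diet. The title gives the question as which genes depend on the nuclear receptor RORα as non-alcoholic steatohepatitis progresses. Each genotype had 1 library, so no difference had a replicate check, and the number of animals behind a library is not stated in the sources used here.

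Long-chain fatty acids cannot cross the inner mitochondrial membrane as acyl-CoA. They are passed to carnitine at the outer membrane, carried across as acylcarnitine and returned to CoA in the matrix, where each turn of β-oxidation removes an acetyl unit through dehydrogenation, hydration, a further dehydrogenation and thiolysis. In liver the first of these transfers, made by the Cpt1a product, is the step at which malonyl-CoA from fatty acid synthesis blocks entry, and many genes of the pathway are known targets of the fasting-activated receptor PPARα.

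Promoter sequences were examined because RORα binds the hexamer AGGTCA after an A/T-rich stretch and PPARα binds a pair of such hexamers. RefSeq (GRCm38.p6) gave a window from 250 bases before to 50 after the start for all 10 genes. The stretches printed here hold no annotated exon and belong to Cpt1a and Slc22a5, which had the highest ratios between the libraries, to Cpt2, the partner of Cpt1a, to Acadvl, the only member with the letters TAGGTCA, and to the interval between Hadha and Hadhb. Capitals mark AGGTCA and the GC box GGGCGG, each on either strand.
Cpt1a, chr19:3323051-3323284, plus strand: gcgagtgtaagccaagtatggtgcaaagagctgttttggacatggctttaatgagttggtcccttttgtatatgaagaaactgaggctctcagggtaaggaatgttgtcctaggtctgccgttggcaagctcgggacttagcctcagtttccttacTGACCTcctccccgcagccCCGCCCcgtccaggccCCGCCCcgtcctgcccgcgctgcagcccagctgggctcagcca
Slc22a5, chr11:53891704-53891953, minus strand: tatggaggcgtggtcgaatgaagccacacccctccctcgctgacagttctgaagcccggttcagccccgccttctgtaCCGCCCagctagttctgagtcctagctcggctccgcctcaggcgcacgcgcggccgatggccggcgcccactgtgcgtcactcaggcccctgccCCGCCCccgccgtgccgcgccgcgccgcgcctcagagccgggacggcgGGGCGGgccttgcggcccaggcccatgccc
Cpt2, chr4:107923611-107923839, minus strand: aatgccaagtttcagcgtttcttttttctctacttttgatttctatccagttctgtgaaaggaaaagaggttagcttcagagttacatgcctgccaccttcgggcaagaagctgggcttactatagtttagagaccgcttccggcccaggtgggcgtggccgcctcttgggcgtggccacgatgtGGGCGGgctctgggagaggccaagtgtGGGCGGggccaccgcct
Acadvl, chr11:70015429-70015678, minus strand: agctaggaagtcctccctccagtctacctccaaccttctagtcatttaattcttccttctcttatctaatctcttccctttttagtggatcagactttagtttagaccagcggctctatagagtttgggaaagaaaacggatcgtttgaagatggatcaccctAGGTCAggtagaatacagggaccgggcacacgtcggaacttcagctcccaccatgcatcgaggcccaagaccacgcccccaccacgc
Hadha to Hadhb, chr5:30155163-30155247, plus strand: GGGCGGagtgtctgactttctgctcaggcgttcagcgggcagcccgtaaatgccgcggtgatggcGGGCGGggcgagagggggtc

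Read on both strands of the whole windows, AGGTCA was found in 3 members (Cpt1a, Acadvl and Acadm), against 16.3% of all 32851 windows of this length. The form TAGGTCA, closer to a RORα site, was in Acadvl and in 2.61% of all windows, and AAGGTCA only in Acadm and in 4.72%. Both of these forms contain AGGTCA and so count under it too. Neither match followed an A/T-rich stretch, as the bases just before it read caccc in Acadvl and gcccg in Acadm. The direct repeat AGGTCANAGGTCA, with 1 free base, was in 0 of the 10 windows and in 0.0396% of all. GGGCGG was in 8 members, all but Acadvl and Acadm, and in 35.7% of all windows. CCAAT was found in Cpt1a alone, across the end of the printed stretch, and in 37.4% of all. Hadha and Hadhb lie head to head on chromosome 5 with 85 bases between their GENCODE starts, and that interval holds GGGCGG at its left end and again near its right end. These matches describe letters in a short window and not binding.

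The control library held 128201591 counts and the LKO-labelled library 131843686. Rora, the targeted gene, had 3701 and 3677 counts, or 33.4 and 24.1 CPM (counts scaled to library size), a ratio of 0.722 (interval 0.690 to 0.756). Of all measured genes, 14.3% had a lower ratio, and the log2 ratio of Rora was −0.0498 when libraries were scaled by total count. Counts per gene do not separate exons, and which part was deleted was not examined. The Rora total therefore does not settle the genotype, and the label, not the loss of RORα, names each direction. CPM were scaled with trimmed-mean factors (TMM). Ratios are the LKO-labelled library over control, and intervals are 95% exact intervals that cover counting error only. Scaling by total count would raise every log2 ratio by 0.42, and leaving the 20 most abundant genes out of the totals would raise it by 0.12. A gene counted as measured with a mean of 1 CPM or more and 20 or more counts over both libraries, and all 10 members did. A call of higher or lower needed a 1.5-fold difference and an interval without 1.

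By this rule 2 of the 10 members were higher in the LKO-labelled library and 0 lower, where 10.5% of the 11137 measured genes were called higher and 9.76% lower. Both called members, Cpt1a and Slc22a5, belong to the shuttle. The count of called members depended on scaling: it was 7 with total-count scaling, where 34.6% of measured genes were called higher and 2.53% lower, and 3, with Acads added, when totals left out the 20 most abundant genes, where 16.4% were called higher and 7.43% lower. All 10 ratios were above 1, as were 49.7% of all measured genes, though that of Hadhb was so close to 1 that upper-quartile scaling put it below. Intervals lay wholly above 1 for 9 of the 10 and for 38.1% of measured genes.

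**Figure D1:**
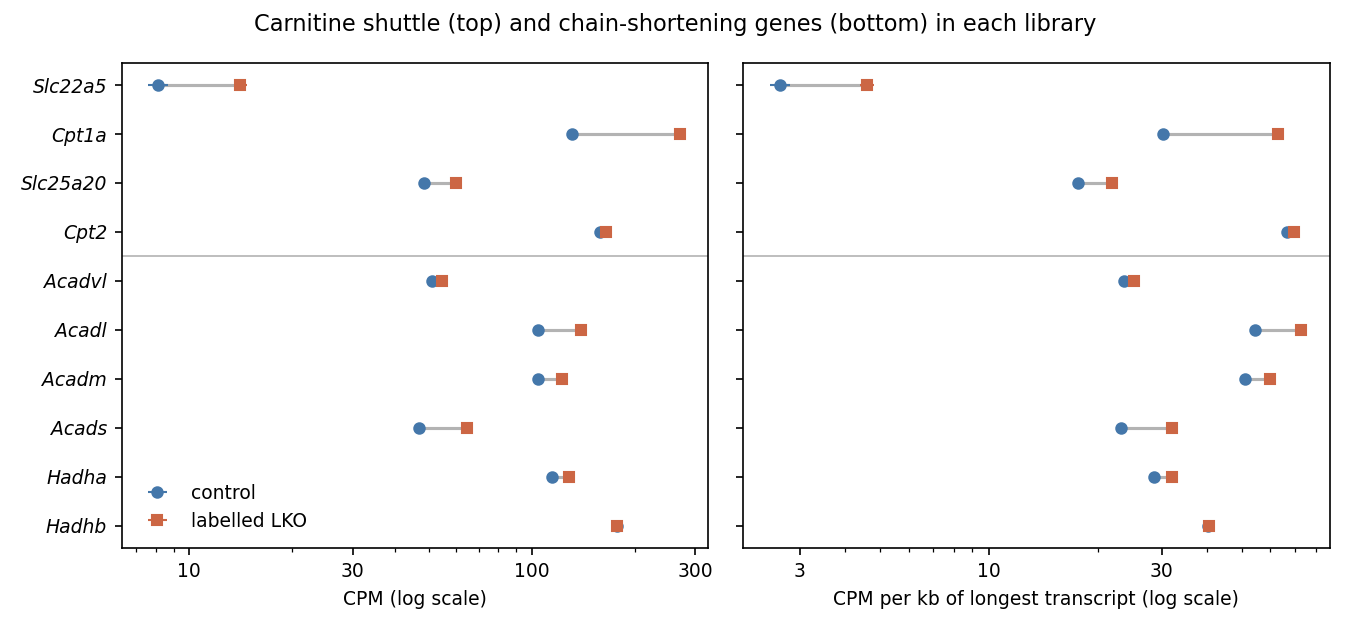
Level of each gene in the control library (circles) and the LKO-labelled library (squares), as CPM on the left and as CPM per kb of the longest annotated transcript on the right, both on log axes, with 95% counting intervals mostly hidden by the symbols. Cpt1a moves from 131 to 272 CPM, while the symbols of Cpt2 and Hadhb nearly coincide.

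Cpt1a encodes the liver form of carnitine palmitoyltransferase 1, which sits in the outer mitochondrial membrane and makes acylcarnitine. It lies on chromosome 19 (mm10) from 3322334 to 3385733, plus strand. Its counts were 14531 in the control library and 41451 in the LKO-labelled library, or 131 and 272 CPM, a ratio of 2.07 (interval 2.03 to 2.11). It was the only member past 2-fold, a size reached upward by 3.83% of measured genes and downward by 2.62%, and 96.6% of measured genes had a lower ratio. With the dependence of ratios on transcript length and GC content taken out, its ratio was 1.96.

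Slc22a5 encodes OCTN2, the sodium-dependent carrier that brings carnitine into cells across the plasma membrane. The gene lies on chromosome 11 from 53864542 to 53891660, minus strand. With 899 and 2150 counts, or 8.11 and 14.1 CPM, it was the least abundant member in both libraries. Its ratio of 1.74 (interval 1.61 to 1.88) was the second highest of the 10, above that of 94.0% of measured genes. Its neighbour Slc22a21 matches it at 98.3% identity over 831 bases and Slc22a4 at 93.6% over 373, so reads could be split among them, but these genes held only 21 and 62 and 82 and 110 counts.

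The remaining shuttle steps differed less. Slc25a20, on chromosome 9, encodes the translocase that exchanges acylcarnitine for free carnitine across the inner membrane. It had 5377 and 9180 counts, or 48.5 and 60.2 CPM, a ratio of 1.24 (interval 1.20 to 1.28). Cpt2, on chromosome 4, encodes the transferase on the matrix side that re-forms acyl-CoA. With 17516 and 25189 counts, or 158 and 165 CPM, its ratio was 1.05 (interval 1.03 to 1.07), near the middle of all genes. The transferases at either end of the shuttle therefore stood apart: for each Cpt2 count there were 0.830 Cpt1a counts in the control and 1.65 in the LKO-labelled library. That shift of 1.98-fold (interval 1.93 to 2.04) does not depend on how the libraries are scaled. Shuttle members had a median log2 ratio of 0.55, but with 2 genes well above it and 2 well below, the median describes none of them.

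The acyl-CoA dehydrogenases make the first double bond of each turn and differ in the chain length they accept. Acadvl, for very long chains and bound to the inner membrane, had 5678 and 8348 counts, or 51.2 and 54.7 CPM, a ratio of 1.07 (interval 1.03 to 1.11). Acadl, for long chains, had 11541 and 21282 counts, or 104 and 140 CPM, a ratio of 1.34 (interval 1.31 to 1.37). Acadm, for medium chains, started from nearly the same level, with 11565 and 18713 counts, or 104 and 123 CPM, and its ratio was 1.18 (interval 1.15 to 1.20). Acads, for short chains, had 5186 and 9889 counts, or 46.8 and 64.9 CPM, and at 1.39 (interval 1.34 to 1.43) the highest ratio of the 6 chain-shortening genes. None of the 4 reached 1.5-fold, and under TMM their ratios did not follow chain length, with the long-chain and short-chain genes above the very-long-chain and medium-chain ones. Acadl and Acadm, equal in the control library at 0.998 Acadl counts per Acadm count, stood at 1.14 in the LKO-labelled library. Removal of the length and GC trend brought Acadl to 1.496, close under the threshold, Acads down to 1.261 and Acadm up to 1.256. Acads then stood level with Acadm and under Acadl, so its place in the order rests on that choice.

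Hadha and Hadhb encode the α and β subunits of the trifunctional protein, which carries out the hydratase, second dehydrogenase and thiolase steps on long chains. They are the head-to-head pair whose 85-base interval is printed above. Hadha had 12734 and 19660 counts, or 115 and 129 CPM, a ratio of 1.12 (interval 1.10 to 1.15). Hadhb, with 19639 and 27110 counts, or 177 and 178 CPM, had the lowest ratio of the 10, at 1.004 (interval 0.985 to 1.02). Within a library the Hadha count was 0.648 of the Hadhb count in the control and 0.725 in the LKO-labelled library, a shift of 1.12-fold (interval 1.09 to 1.15). That shift was no longer there once the length and GC trend was removed, when the ratios were 1.07 for both. The removal used the longest annotated transcript, coding or not, which for Hadhb had 4388 bases and 39.1% GC. Whether that transcript was the one expressed was not examined. The 6 chain-shortening genes had a median log2 ratio of 0.20, against −0.003 for all measured genes.

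**Figure D2:**
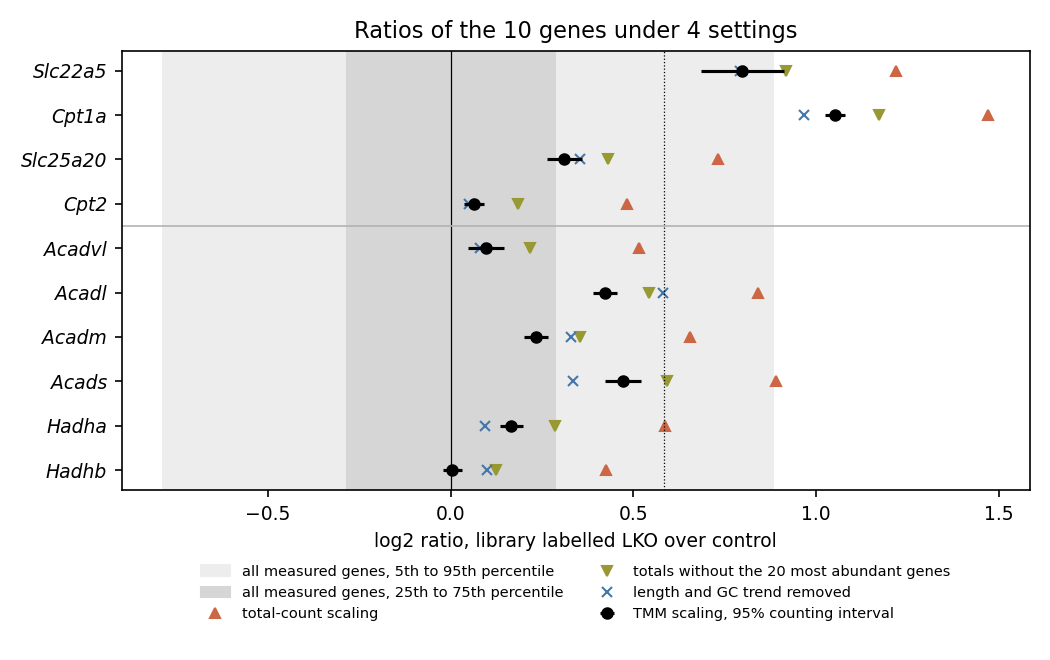
Log2 ratio of each gene, LKO-labelled library over control, with its 95% counting interval under TMM scaling (black) and its value under total-count scaling, totals without the 20 most abundant genes, and removal of a length and GC trend. Grey bands span the 5th to 95th and the 25th to 75th percentile of all measured genes under TMM, and the dotted line marks 1.5-fold; Cpt1a and Slc22a5 alone lie right of it in all 4 settings.

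Ratios between 2 members within a library do not depend on scaling, and all 45 pairs were compared. Of these, 11 differed at least 1.5-fold between the libraries, each of them with Cpt1a or Slc22a5. Cpt1a was higher relative to every other member, from 1.19-fold against Slc22a5 to 2.07-fold against Hadhb. Slc22a5 was 1.66-fold (interval 1.53 to 1.80) higher relative to Cpt2 and 1.73-fold (interval 1.60 to 1.88) relative to Hadhb. Among the 28 pairs without these 2 genes, the largest difference was 1.38-fold, that of Acads relative to Hadhb.

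Set as shuttle against chain shortening, 17 of 24 pairs had the shuttle gene relatively higher in the LKO-labelled library, each with an interval that left out 1, and 6 had it relatively lower. All 12 pairs with Cpt1a or Slc22a5 were among the 17. Slc25a20 was relatively higher than Acadvl, Acadm, Hadha and Hadhb and relatively lower than Acadl and Acads. Cpt2 was relatively higher than Hadhb alone, relatively lower than Acadl, Acadm, Acads and Hadha, and against Acadvl stood at 0.978 with an interval that held 1 (0.941 to 1.02). With the length and GC trend removed, Cpt2 (1.03) stood under Hadhb (1.07), and Slc25a20 (1.28) came level with Acads (1.26). The group medians differed by 0.35 on the log2 scale, or 0.36 after removal of the length and GC trend.

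**Figure D3:**
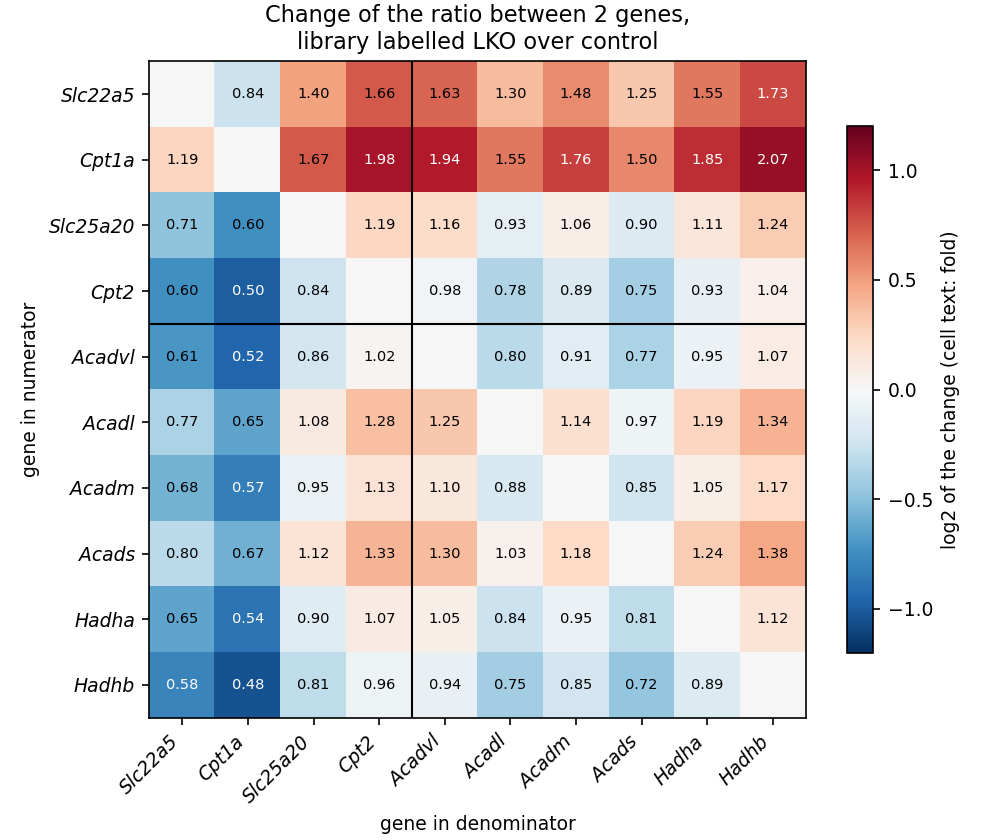
Difference between the libraries in the within-library count ratio of 2 genes, as fold in each cell and as log2 in colour, for the gene in the row over the gene in the column, with lines separating shuttle from chain-shortening genes. With the length and GC trend left in, the rows of Cpt1a and Slc22a5 hold every difference of 1.5-fold or more, while Cpt2 and Slc25a20 stay within the range of the chain-shortening genes.

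Levels of different genes were compared per kb of the longest annotated transcript, coding or not, and which transcripts were expressed was not examined. In the control library Cpt2 was highest at 66.6 CPM per kb. Acadl followed at 54.3 CPM per kb and Acadm at 51.0 CPM per kb. Hadhb stood at 40.4 CPM per kb, Cpt1a at 30.4 and Hadha at 28.6, so the gene of the entry step was at rank 5. Acadvl and Acads, at 23.6 and 23.1 CPM per kb, had overlapping counting intervals. Slc25a20 stood at 17.6 CPM per kb and Slc22a5 at 2.65, well under the rest. In the LKO-labelled library Acadl led at 72.8 CPM per kb, before Cpt2 at 69.6 and Cpt1a at 63.0. Cpt1a thus moved from rank 5 to rank 3, and per kb its level went from 0.456 to 0.904 of that of Cpt2. Its part of the summed shuttle level per kb was 25.9% in the control library and 39.6% in the LKO-labelled library, while that of Cpt2 was 56.8% and 43.8%. Hadha and Acads, both at 32.1 CPM per kb, could not be ordered in that library. With the length of all annotated exons in place of the longest transcript, Cpt1a moved from rank 7 to rank 3, and the level ratio of Cpt1a to Cpt2 went from 0.260 to 0.515. That choice also lowered the control levels of Acadm to 26.7 CPM per kb, Hadhb to 26.9 and Hadha to 13.2, while Acadl stayed at 51.9. The control level ratio of Acadl to Acadm was thus 1.07 per kb of the longest transcript and 1.95 per kb of all exons, and Hadha, at rank 8 in both libraries, came under Acads and Acadvl.

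Other carnitine genes were read from a list of 11, of which 6 were measured. Called higher were 2 of the 6 and lower 0, and their median log2 ratio was 0.26. Over all measured genes 10.5% were called higher and 9.76% lower, the shares to set beside each list count under TMM below. Crat, which moves acetyl groups onto carnitine, stood at 46.7 and 93.1 CPM, a ratio of 1.99 (interval 1.93 to 2.06), close to that of Cpt1a. Crot, the peroxisomal octanoyltransferase gene, had a ratio of 1.20, and so had Aldh9a1, of carnitine synthesis. Cpt1b, the muscle form of the entry enzyme, was 3.49-fold (interval 2.87 to 4.25) higher from a low level, at 1.15 and 3.99 CPM. Its neighbour Chkb had 7593 and 20887 counts, and the read-through gene that spans Chkb and Cpt1b had 2652 and 7605 counts against 127 and 609 for Cpt1b, so reads could be split among them. Per kb, Cpt1a made up 98.2% and 97.4% of the summed level of Cpt1a, Cpt1b and Cpt1c. Tmlhe, an early enzyme of carnitine synthesis, was listed at 0 counts in both libraries, where a floor of 3 counts stands at 0.0271 and 0.0197 CPM. The GENCODE models used here hold no entry under this symbol, and whether the counting covered its locus is not stated in the sources used here.

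All 20 other mitochondrial β-oxidation genes on the list were measured. By the same rule 3 were called higher and 1 lower, beside 10.5% and 9.76% of all measured genes. Ratios ran from 0.605 to 2.24 with 13 above 1, and the log2 ratios had a median of 0.13. Acaa2, the matrix thiolase gene and the most abundant of the list per kb, stood at 498 and 387 CPM, a ratio of 0.776 (interval 0.767 to 0.785). Etfb, a subunit gene of the flavoprotein that takes electrons from the acyl-CoA dehydrogenases, had a ratio of 0.816, and Eci2, an enoyl-CoA isomerase gene, 1.11. The ratios of Acaa2 and Etfb exceed 1 with total-count scaling. Acadsb, which acts on branched short chains, was 1.65-fold (interval 1.57 to 1.74) lower, a call lost with total-count scaling (log2 ratio −0.31). Slc25a32, a mitochondrial folate and flavin carrier gene, was 1.69-fold higher. Acad12 and Acad10, paralogs that lie side by side, were 2.24-fold and 1.57-fold higher, and Acad10 fell under 1.5-fold once the length and GC trend was removed (log2 ratio 0.53).

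Among 20 regulators of the pathway, all measured, 5 were called higher and 0 lower, and the log2 ratios had a median of 0.21. Ppara itself stood at 170 and 298 CPM, a ratio of 1.76 (interval 1.73 to 1.79), while its partner gene Rxra had a ratio of 1.26. Acacb and Acaca, whose products make the malonyl-CoA that inhibits the Cpt1a enzyme, were 3.70-fold and 1.87-fold higher. Thus the inhibitor's synthesis genes and the inhibited enzyme's gene were higher in the same library. Lpin1, a phosphatidate phosphatase gene that also coactivates PPARα, had the largest ratio of the list, 5.17. Sirt5, a mitochondrial deacylase gene named after its value was seen, was 1.66-fold higher.

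Of 19 other PPARα target genes, all measured, 16 were called higher and 0 lower, around a median of 1.16 (log2). Cpt1a, at 1.05, lay near that median, and the chain-shortening members lay under it, up to 0.47. The highest ratios were those of the omega-hydroxylase genes Cyp4a10 (5.69) and Cyp4a14 (5.25), which have close copies, the pantetheinase gene Vnn1 (5.39) and the hormone gene Fgf21 (4.59). Fabp1, an abundant fatty acid binding protein gene, had a ratio of 0.740 under TMM (log2 −0.434). That decrease depended on the setting. The log2 ratio of Fabp1 stood at −0.0107 without the length and GC trend, and at −0.0142 when libraries were scaled by their totals.

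As a gauge of mitochondrial transcripts outside fatty acid oxidation, 25 genes of the citric acid cycle, respiratory chain, import and maintenance were read. By the same rule 0 were higher and 1 was lower, the cytochrome c gene Cycs at 1.60-fold. Cycs lost that call with total-count scaling (log2 ratio −0.26), with totals without the 20 most abundant genes (−0.56) and after removal of the length and GC trend (−0.55). Their median log2 ratio was −0.14, against 0.20 for the chain-shortening members, and it was 0.28 against 0.62 with total-count scaling. Cox4i1 and Atp5b, the most abundant per kb, had ratios of 0.724 and 0.809, and Mdh2 1.07; that of Atp5b exceeds 1 with total-count scaling. That scaling, with 34.6% of measured genes called higher and 2.53% lower, also gave 0 of the 25 as lower and 6 as higher. Higher calls then went to 12 of the 20 regulators, 8 of the 20 other β-oxidation genes, 4 of the 6 other carnitine genes and 17 of the 19 PPARα targets.

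**Figure D4:**
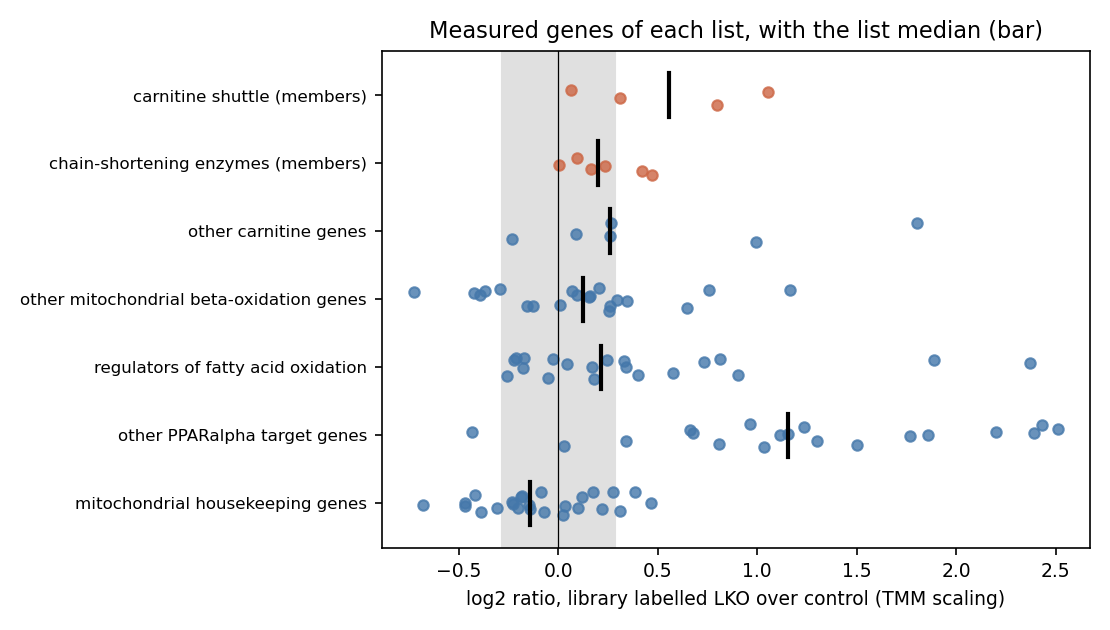
Log2 ratio under TMM scaling of each measured gene in the shuttle and chain-shortening groups (orange) and in 5 lists of related genes (blue), with a bar at each list median and a grey band from the 25th to the 75th percentile of all measured genes. All members lie within the range of the PPARα target list, from −0.43 to 2.51. Slc22a5 is at 0.80 and Cpt1a at 1.05, and the 6 chain-shortening genes lie between 0.01 and 0.47.

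Liver holds other cells beside hepatocytes, and in bulk RNA fewer cells of a type and less RNA per cell cannot be told apart. Hepatocyte markers were present at high level in both libraries, with 15 of 16 symbols in the files and summed levels of 182779 and 142785 CPM. Of the 15, 5 were called lower and 0 higher, beside 9.76% and 10.5% of all measured genes. Kupffer cell markers summed to 208 and 135 CPM, with 7 of 11 measured genes lower and 0 higher. Stellate cell and fibroblast markers summed to 215 and 301 CPM, with 6 of 11 higher and 0 lower. Dcn, at 158 and 210 CPM, made up most of both sums. Of the 11 ratios 8 were above 1, while Lrat (0.884), Rgs5 (0.676) and Acta2 (0.905) were under it. Endothelial markers summed to 356 and 453 CPM, with 1 of 10 higher. Recruited macrophage and neutrophil markers summed to 78.6 and 66.0 CPM, with 1 of 5 measured genes higher and S100a8 at 0. Cholangiocyte markers summed to 57.1 and 44.6 CPM with Cftr at 0. Spp1, at 51.6 and 40.2 CPM, is on both of these lists and made up most of both sums, and the biliary keratin genes Krt19 and Krt7 were each under 1 CPM. Lymphocyte markers summed to 9.53 and 7.23 CPM. Adipocyte markers summed to 13.4 and 23.0 CPM, with Lep, Plin1 and Retn at 0 in both. Red blood cell genes summed to 1007 and 1073 CPM. Hba-a1 and Hba-a2 held identical counts, 34485 and 59309 (311 and 389 CPM), so 1 measurement enters that sum 2 times. The sum therefore gives no direction for red blood cell genes. With total-count scaling, 1 hepatocyte and 1 Kupffer cell marker were called lower, and 2 and 1 higher, beside 2.53% and 34.6% of all measured genes. That scaling also called higher 8 of 11 stellate cell, 5 of 10 endothelial and 4 of 5 red blood cell markers, the last against 0 higher and 1 lower with TMM. Those 4 include both Hba-a1 and Hba-a2, whose counts are identical. The part of these shifts in the ratios of the 10 members was not tested. Striated muscle markers summed to 0.0541 and 0.0590 CPM, and Ckm, Mb, Myh4, Tnnt3 and Tnni2 were at 0 in both libraries, beside the Cpt1b values given above.

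Sharing of reads with other genes was checked for each member, because the labels do not say whether strand was used or how reads with several alignments were treated. No member had the same pair of counts as any other gene, and no close copy of at least 100 bases at 90% identity was found for Cpt1a, Cpt2, Acadl, Acads or Hadha. Acadm matched the processed pseudogene Gm5131 over 681 bases, Hadhb matched transcripts of at least 389 genes over at most 226 bases each, and Slc25a20 those of at least 382 over at most 366. For Hadhb and Slc25a20 these are short stretches of longest annotated transcripts of 4388 and 2751 bases, not copies of the whole gene. Acadvl shares 1151 exon bases with Dvl2 on the opposite strand, which had only 192 and 330 counts. Hadha shares 75 exon bases with Garem2, also on the opposite strand. Near Acadvl, 2 of 36 genes within 250 kb with any count had a count difference within 5% of its own, and 0 did so near the other members.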

How the data were processed

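Liver RNA from 1 control and 1 LKO library (500 ng of total RNA, LEXOGEN mRNA-Seq kit, per the labels' protocols) was read from 2 deposited tables of whole-number counts per gene symbol, not normalized. Per the submitters' processing notes, TopHat, edgeR and build mm10 were used; the sources used here give no roles, versions, counter or annotation. Raw counts were scaled with TMM factors (edgeR 4.0.16, R 4.3.3). Ratios carry 95% Clopper-Pearson intervals conditional on the sum of both counts (SciPy 1.17.1), which cover counting error only and are too narrow where reads were counted more than once. PCR reads without molecular identifiers are not independent molecules. Intervals for ratios between 2 genes used a normal approximation on 4 Poisson counts. No p-value was computed, since each group had 1 library. Gene models came from GENCODE M21 (GRCm38) by symbol, promoter windows from RefSeq, and close copies from BLAST+ 2.17.0. The length and GC trend was removed with lowess (fraction 0.3, statsmodels 0.14.6) for 96.4% of measured genes. Ratios and calls were run on simulated Poisson counts. Those hold counting error only, as the intervals assume, and so cannot test for differences between animals.

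The members and lists were chosen with earlier results of these data known. Named from each list of related genes were up to 4 genes called in each direction, by size, and the 3 most abundant per kb; all 10 members and Rora were named. A few genes that this rule names are not reported here. Alternatives were scaling by total count, DESeq2 1.42.0 median of ratios, upper quartile and totals without the 20 most abundant genes, the length and GC trend, other filters, an added count of 0.5, a 99% interval and other fold thresholds, among them 2.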

Additional observations from a re-analysis of the deposited data

How the results depend on the processing

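With 1 library per genotype no value has a replicate check, and no library could be left out. No paired analysis was possible because each group has 1 library and the labels give no replicate numbers. With total-count scaling the members called higher went from 2 to 7, the shuttle median from 0.55 to 0.97 and the chain-shortening median from 0.20 to 0.62 (log2). The genes called higher and lower went from 1169 and 1087 (10.5% and 9.76%) to 3866 and 282 (34.6% and 2.53%). Totals without the 20 most abundant genes gave medians of 0.68 and 0.32 and 1978 genes (16.4%) called higher. At 2-fold, 1 member was called, with 426 genes (3.83%) higher and 292 (2.62%) lower. At the laxest threshold tried, 4 members were called higher, with 2535 (22.8%) of the 11137 measured genes higher and 2516 (22.6%) lower. Without a filter 2389 genes were called higher and 2111 lower, and with the stricter CPM filter 431 and 486, out of 17746 and 5380 genes that entered. By their construction the scalings cannot change the difference of the medians, 0.35. The 10 member ratios stayed within their counting intervals under median-of-ratios and upper-quartile scaling, an added count of 0.5 and either filter; 6 of 10 left them once the length and GC trend was removed, and none of the 10 calls changed there.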
